A study of Homo sapiens with 24 samples.

Results

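The genes described here are 40 genes of the endoplasmic reticulum (ER) secretory pathway and the unfolded protein response, of 30142 genes named on the array. They were chosen by gene name, as a readout of plasma cell-like secretory capacity, and each was read from its brightest probe. All 40 were on the array. FOXP1, a forkhead transcription factor, was silenced in 4 established lines of diffuse large B-cell lymphoma, DB and K422 of the germinal centre B-cell-like (GCB) subtype and HBL-1 and OCI-Ly3 of the activated B-cell-like (ABC) subtype. Cells received, by Nucleofection (electroporation), 1 of 2 FOXP1-targeting Stealth siRNAs (siFOXP1 #1 or #2) or a Low GC Stealth negative control (siCtrl), all at 1 µM, and were harvested after 48 h. Total RNA of siFOXP1 cells was labelled with Cy3 and that of siCtrl cells of the same line with Cy5, and both were hybridised to the same 2-colour array, with 3 independent experiments per siRNA and line and 24 arrays in all. Every group was thus electroporated, each subtype was represented by 2 lines, and an untreated culture was not analysed here.

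Secreted and membrane proteins enter the ER through the Sec61 translocon, lose their signal peptide to signal peptidase, and are folded there by chaperones and disulfide isomerases. Proteins that fail to fold are drawn back into the cytosol and destroyed by ER-associated degradation. When unfolded protein accumulates, the sensor IRE1 (gene ERN1) splices the mRNA of XBP1, whose protein raises the transcription of many of these genes, and plasma cells depend on XBP1 for immunoglobulin secretion.

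Response is given as log2 of the siFOXP1 over the siCtrl signal on the same array, so that 0 is no difference and positive values are higher after silencing. A gene was called when its Benjamini-Hochberg adjusted p over all genes, from the moderated test of limma, was under 0.05 and its mean log2 ratio was at least 0.5 in size (1.41-fold). "Passed on p" below means the adjusted p alone. FOXP1 itself was lower on all 24 arrays, by log2 ratios of -0.83 to -1.61 with siFOXP1 #1 and -1.70 to -2.71 with #2. Of the 40 genes, 38 to 39 were well above background in both channels on every array of a line, and KDELR3 was the dim exception that failed the filter on low signal. B-cell genes were detected in all 4 lines. Signals of 6 T-cell and myeloid genes summed to 108.9 to 341.3 in DB, HBL-1 and OCI-Ly3 and to 3392 to 3730 in K422, where CD3D had a control level of 11.73 (log2), against sums of 41090 to 177200 for 6 B-cell genes. Signals of different probes are not on one scale, so these sums are only a rough guide. All arrays had the same dye orientation, so a dye bias of a probe and the effect of silencing cannot be told apart within a line. A direction shared by all 4 lines does not separate them either. DB and OCI-Ly3 shared one scan session and K422 and HBL-1 the other. Less RNA per cell and fewer cells of a given kind cannot be told apart in these bulk samples.

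The start regions of some of the genes carry a known signature of the unfolded protein response, the ER stress element, bound by ATF6 and XBP1 together with the CCAAT-binding factor NF-Y. It is shown as a known binding site, and its use in these cells was not tested. RefSeq promoter sequence of 300 bases (250 before to 50 after each listed start, build GRCh38.p14) was matched for 34 of the 40 genes. ERSE, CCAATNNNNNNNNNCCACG, was found on either strand in 7 of the 34 (20.6%) and in 0.0916% of 27305 genes with such sequence. ERSE-II, the letters ATTGG and CCACG with any 1 base between them, was found in 3 of 34 (8.82%) and in 0.0696% of all. Each line below gives, 5′ to 3′ on the strand that matched, the match with 5 bases on each side, and capitals mark the fixed letters of the motif.
XBP1 (ERSE): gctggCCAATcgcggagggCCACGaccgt
HSPA5 (ERSE): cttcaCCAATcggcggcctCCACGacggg
HSP90B1 (ERSE): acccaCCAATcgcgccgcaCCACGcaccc
CANX (ERSE): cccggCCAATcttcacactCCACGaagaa
HYOU1 (ERSE-II): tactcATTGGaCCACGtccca
HERPUD1 (ERSE-II): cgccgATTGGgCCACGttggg
The windows lie before the transcription start, with the motif at bases -52 to -34 for XBP1 (chr22:28800598-28800626, minus strand) and -66 to -48 for HSPA5 (chr9:125241386-125241414, minus strand). For HSP90B1 it lies at -89 to -71 (chr12:103930316-103930344, minus strand, opposite to the gene), and a further match at -194 to -176 is not shown. The CANX match lies at -189 to -171 (chr5:179698773-179698801, plus strand). For HYOU1 the match shown is at -79 to -69 (chr11:119057269-119057289, plus strand, opposite to the gene), and for HERPUD1 at -117 to -107 (chr16:56932020-56932040, plus strand). CALR, CRELD2 and PDIA6 also held ERSE and SDF2L1 held ERSE-II. The shorter UPRE letters TGACGTGG were found in 5 members (14.7%; HYOU1, where it overlaps a second ERSE-II match, SEC62, SSR3, SSR4 and KDELR3) and in 0.927% of all genes. The forkhead letters TGTTTAC were in none of these windows of the 34 and in 4.19% of all genes, which says only that the letters are not in this window.

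Silencing of FOXP1 moved few of the 40 genes far, and not in one direction. In DB, 0 were called by limma, beside 2.16% of all genes, with 13 at an unadjusted p under 0.05 and 0 called by the methods' t-test. In K422, 3 of 40 (7.50%) were called, beside 4.44% of all genes. In HBL-1, 2 of 40 (5.00%) were called, beside 9.90%, and in OCI-Ly3 1 of 40 (2.5%), beside 4.42%. With no limit on size, 6 members passed on p in DB (15.0% of them, beside 12.1% of all genes), 16 in K422 (40%, beside 19.4%), 15 in HBL-1 (37.5%, beside 31.1%) and 11 in OCI-Ly3 (27.5%, beside 18.8%). Many dim genes cannot pass, and among the 15444 genes with a probe above background the shares on p were 20.5%, 31.2%, 50.6% and 29.4%, so the members' shares lay below these in DB, HBL-1 and OCI-Ly3 and above in K422.

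The directions were mixed in every line with the deposited dye normalization. On p, 3 members were higher and 3 lower in DB (beside 6.17% and 5.96% of all genes), 6 and 10 in K422 (9.81% and 9.59%), 8 and 7 in HBL-1 (16.2% and 15.0%), and 6 and 5 in OCI-Ly3 (9.65% and 9.12%). With normexp background and median centring in place of loess, 0 were higher and 2 lower in DB, 0 and 0 in K422, 1 and 10 in HBL-1 and 0 and 1 in OCI-Ly3. The median log2 ratio of the 40 was -0.04, -0.04, -0.02 and 0.02 in that order, against medians of 0.01, 0.00, 0.01 and -0.01 over the genes above background. Over the 4 lines, 26 members passed on p in at least 1 line and 14 in none. On the brightest probe 0 passed in opposite directions in different lines. These counts were not made over all genes, so they show nothing particular to the members. The second SEC61B probe passed as higher in K422 (0.17, adjusted p over all probes = 0.0463) and lower in OCI-Ly3 (-0.28, 0.00184). SEC61A1 and OS9 were higher and SPCS2 was lower in all 4 lines, 5.00% and 2.5% of the members, beside 1.84% and 1.79% of all genes and 3.56% and 3.23% of those above background. These genes also passed in all 4 lines with normexp background and loess. With normexp background and median centring SEC61A1 passed in no line, and OS9 and SPCS2 passed in HBL-1 alone. A dye bias of these probes would also have the same sign in every line and cannot be told apart from silencing here.

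**Figure D1:**
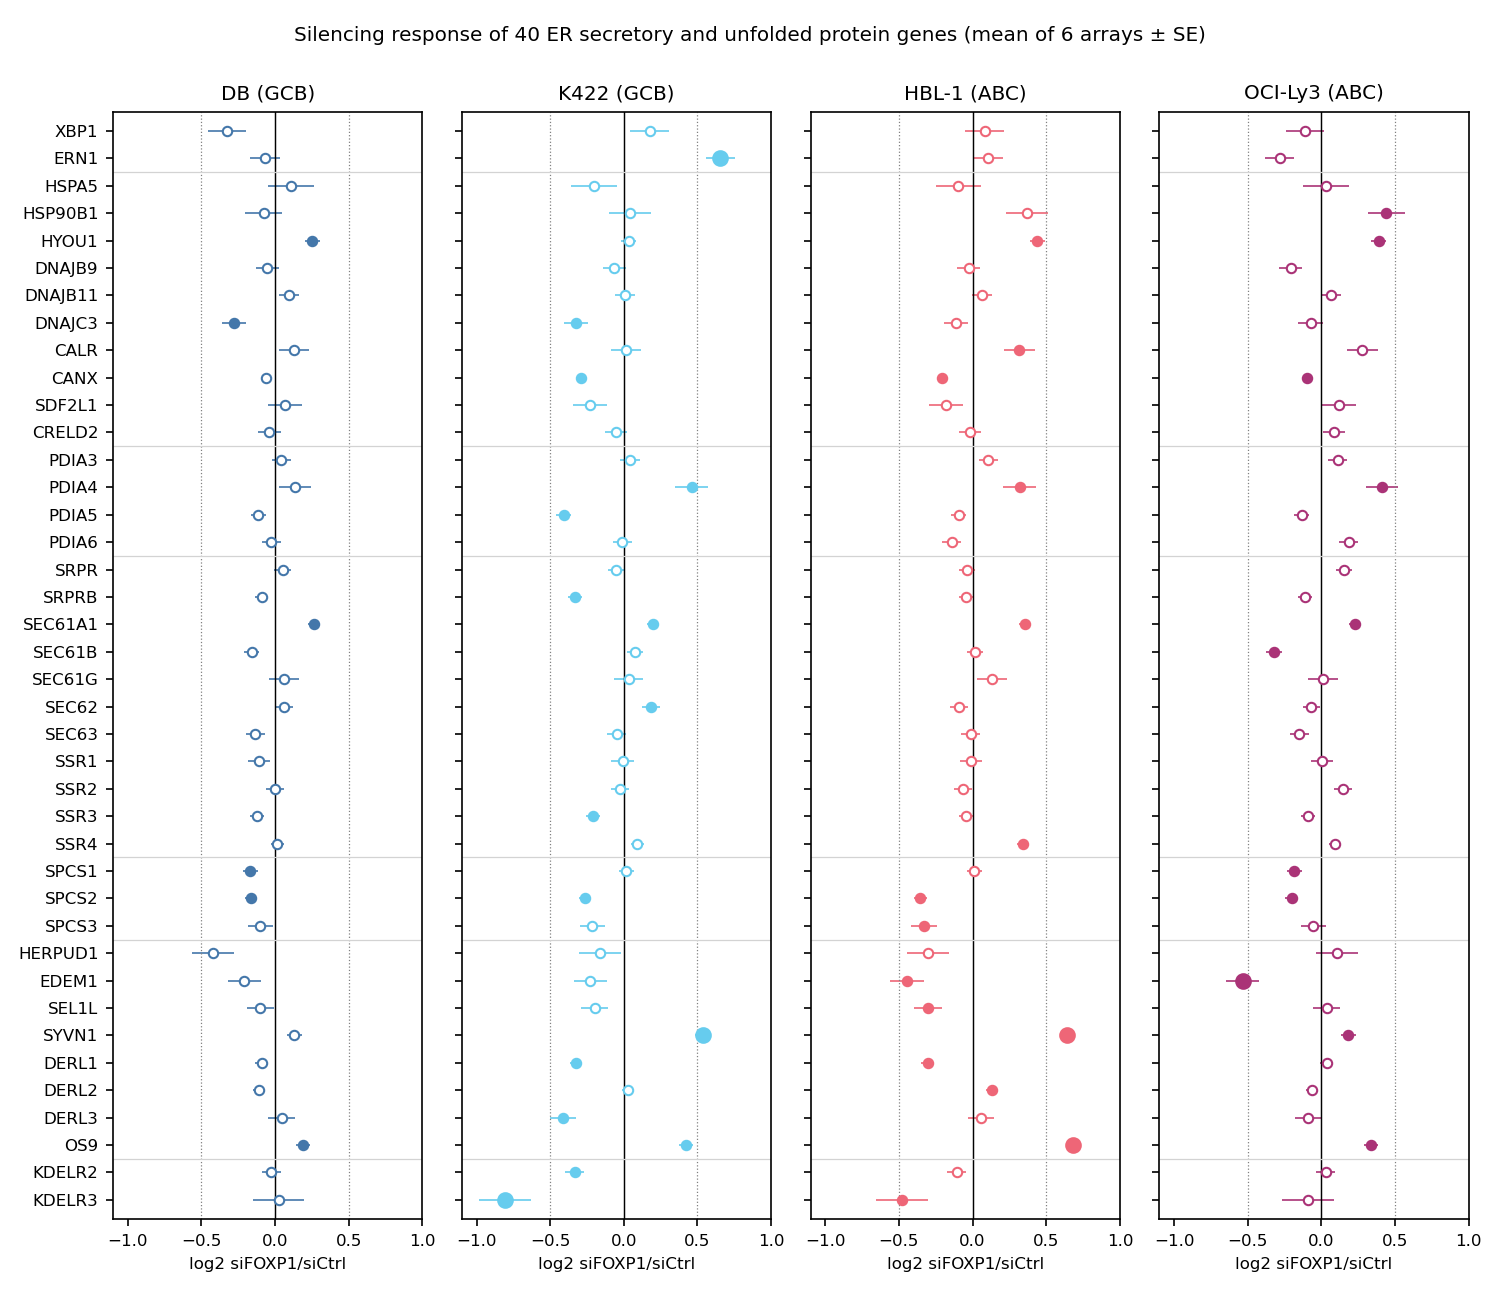
Mean log2 siFOXP1/siCtrl of each of the 40 genes (rows, grouped by role) in each line, with bars of 1 SE from limma over 6 arrays (5 for HSP90B1 in K422 and HBL-1). Large filled points were called, small filled points passed on p only, open points did neither, and dotted lines mark log2 ratios of -0.5 and 0.5; the called points are ERN1, SYVN1 and KDELR3 in K422, SYVN1 and OS9 in HBL-1 and EDEM1 in OCI-Ly3.

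Of the sensor and its transcription factor, XBP1 was not called in any line. Its 6 arrays ran from -1.13 through a median of -0.23 to 0.41 in DB, from -0.03 through 0.19 to 0.29 in K422, from -0.01 through 0.06 to 0.18 in HBL-1 and from -0.42 through -0.03 to 0.05 in OCI-Ly3. The arrays of each line lay on both sides of 0, and the 4 means, -0.33 ± 0.13 (SE, n = 6), 0.17 ± 0.13, 0.08 ± 0.13 and -0.11 ± 0.13, had adjusted p of 0.126 to 0.771 (limma). A second XBP1 probe, also well above background on every array, passed on p in DB at -0.43 (adjusted p over all probes = 0.0326) and gave 0.00, 0.04 and -0.18 in the other lines. The probe does not separate spliced from unspliced XBP1 mRNA, so IRE1 activity was not measured.

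ERN1, which encodes IRE1, rose in K422 alone on this test, where all 6 arrays were above 0. They ran from 0.37 through 0.61 to 1.05, a mean of 0.66 ± 0.10 (SE, n = 6, limma adjusted p = 0.000165). In OCI-Ly3 the arrays ran from -0.41 through -0.35 to 0.02 with a mean of -0.28 (adjusted p = 0.0578), in HBL-1 from 0.05 through 0.11 to 0.16 with a mean of 0.10 (adjusted p = 0.525), and in DB from -0.45 through -0.09 to 0.49 with a mean of -0.07 (adjusted p = 0.822). The K422 arrays did not overlap those of HBL-1 or OCI-Ly3. The K422 value rests on 1 of 3 ERN1 probes: a probe for NM_001433, well above background on none of the K422 arrays, gave -0.35 (adjusted p over all probes = 0.372) and the third gave 0.06. The brightest probe and the third are annotated to another transcript record, not to NM_001433. Which ERN1 transcript the brightest probe reads was not tested. The mean over the 3 probes was 0.12 (adjusted p = 0.625). ERN1 in K422 was also not called with normexp background and loess (0.31, adjusted p = 0.000712) or median centring (0.29, 0.0625), or without replicate 1 (0.4981, 0.00613).

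Of the 10 chaperones and co-chaperones, 5 passed on p in at least 1 line, with CANX and DNAJC3 lower and HYOU1, HSP90B1 and CALR higher. HSPA5 (BiP), the main ER chaperone of the HSP70 family, had arrays from -0.48 through -0.20 to 1.19 in DB, from -0.41 through -0.15 to -0.11 in K422, from -0.25 through -0.15 to 0.11 in HBL-1 and from -0.40 through 0.10 to 0.41 in OCI-Ly3. Its arrays were all below 0 in K422 and on both sides in the others, and no mean passed (0.11, -0.20, -0.10 and 0.03, limma adjusted p 0.435 to 0.989). A second HSPA5 probe read -0.62 in K422 (adjusted p over all probes = 0.0466) and -0.52 in HBL-1 (0.0676), lower than the first in both.

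HSP90B1 (GRP94), the HSP90 of the ER, rose in OCI-Ly3, where its 6 arrays ran from 0.27 through 0.43 to 0.59, a mean of 0.44 ± 0.13 (SE, adjusted p = 0.0234). A second HSP90B1 probe gave 0.26 there and did not pass (adjusted p over all probes = 0.149). In HBL-1 the 5 arrays left after dropping an outlier spot ran from 0.13 through 0.40 to 0.47, a mean of 0.37 ± 0.14 (adjusted p = 0.0605). All arrays of both ABC lines were above 0. In K422 (5 arrays, -0.07 through 0.07 to 0.11) and DB (-0.78 through -0.21 to 0.62) they lay on both sides of 0.

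HYOU1 (GRP170), a nucleotide exchange factor for BiP, rose in 3 lines. Its arrays ran from 0.05 through 0.28 to 0.43 in DB, from 0.33 through 0.41 to 0.60 in HBL-1 and from 0.18 through 0.44 to 0.49 in OCI-Ly3. The means were 0.25 ± 0.05 (adjusted p = 0.00373), 0.44 ± 0.05 (4.4e-06) and 0.39 ± 0.05 (5.02e-05). In K422 the arrays ran from -0.18 through 0.04 to 0.19 and the mean of 0.03 did not pass (adjusted p = 0.792).

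CALR and CANX, the lectin chaperones of N-glycoproteins, differed in direction: CALR rose in HBL-1 (0.32, adjusted p = 0.0271) and CANX fell in K422 (-0.29, 5.00e-06), HBL-1 (-0.20, 4.67e-05) and OCI-Ly3 (-0.10, 0.0339), with all 6 arrays below 0 in each. DNAJC3, an inhibitor of the kinases that phosphorylate eIF2α, fell in DB (-0.28) and K422 (-0.33). DNAJB9 (ERdj4), a co-chaperone and XBP1 target, had means of -0.05, -0.06, -0.03 and -0.21 with adjusted p of 0.0782 to 0.937, and its arrays ran from -0.37 through -0.19 to 0.61 in DB and from -0.32 through -0.22 to 0.01 in OCI-Ly3. Its other arrays lay between -0.25 and 0.11. SDF2L1, a stress-induced partner of the ER chaperone complex, ran from -0.68 through 0.08 to 0.74 in DB and from -0.25 through 0.21 to 0.39 in OCI-Ly3, and all 12 arrays of K422 and HBL-1 lay between -0.33 and -0.06. None of its 4 means passed (0.07, -0.23, -0.18 and 0.12). DNAJB11 and CRELD2 did not pass in any line.

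Among the 4 disulfide isomerases, which form and shuffle the cysteine bonds of folding proteins, PDIA4 (ERp72) rose in 3 lines, with arrays from 0.16 through 0.49 to 0.68 in K422, from 0.16 through 0.28 to 0.53 in HBL-1 and from 0.18 through 0.44 to 0.73 in OCI-Ly3. The means were 0.46, 0.32 and 0.41 (adjusted p = 0.00586, 0.0338 and 0.0127), and with the replicate number as a block it passed in K422 and OCI-Ly3 but not in HBL-1. PDIA5 fell in K422, from -0.52 through -0.41 to -0.30, a mean of -0.41 (adjusted p = 2.64e-05). PDIA3 and PDIA6 did not pass in any line on the brightest probe. Another probe of PDIA3 passed as higher in HBL-1 (0.21, adjusted p over all probes = 0.0117), and a further one gave -0.04 there.

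Of the 11 genes of targeting and the translocon, SEC61A1, the channel-forming subunit of Sec61, rose in all 4 lines by small amounts. Its arrays ran from 0.18 through 0.22 to 0.41 in DB, from 0.04 through 0.18 to 0.48 in K422, from 0.24 through 0.35 to 0.46 in HBL-1 and from 0.17 through 0.22 to 0.29 in OCI-Ly3. All 24 arrays were above 0, and the means were 0.26, 0.19, 0.35 and 0.23 (adjusted p = 0.000401, 0.00233, 3.11e-06 and 0.000697). With normexp background and median centring SEC61A1 passed in no line. SEC61B, a small subunit of the same channel, fell in OCI-Ly3 (-0.32, adjusted p = 0.000374) and its second probe gave -0.28. Of the rest, SRPR, SEC61G, SEC63, SSR1 and SSR2 did not pass in any line on the brightest probe. Another probe of SEC63, which helps drive translocation, passed as lower in all 4 lines (-0.29, -0.27, -0.24 and -0.48, adjusted p over all probes 0.000173 to 0.02) and a further one in DB (-0.26) and OCI-Ly3 (-0.30), and a second probe of SRPR passed as higher in HBL-1 (0.33, 0.00541). A second probe of SSR1 also passed as higher in HBL-1 (0.23, 0.0243). The others that passed were SRPRB, part of the signal recognition particle receptor (-0.33 in K422), SEC62 (0.18 in K422), SSR3 (-0.21 in K422) and SSR4 (0.34 in HBL-1, -0.11 where arrays were centred on the median without loess). In K422 the other SEC62 probes gave -0.03 to 0.12 and the second SSR3 probe -0.07, and none of these passed. Other SEC62 probes passed as lower in HBL-1 (-0.27, adjusted p over all probes = 0.0325) and OCI-Ly3 (-0.11, 0.025).

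Signal peptidase subunits that passed were all lower. SPCS2 fell in all 4 lines, with every one of its 24 arrays below 0. Its arrays ran from -0.24 through -0.16 to -0.11 in DB, from -0.48 through -0.26 to -0.03 in K422, from -0.46 through -0.33 to -0.29 in HBL-1 and from -0.31 through -0.21 to -0.08 in OCI-Ly3. The means were -0.16, -0.26, -0.355 and -0.20 (adjusted p = 0.0174, 0.000274, 4.94e-06 and 0.00253). With normexp background and median centring SPCS2 passed in HBL-1 alone. SPCS1 fell in DB (-0.17) and OCI-Ly3 (-0.18) and SPCS3 in HBL-1 (-0.33).

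The 8 genes of ER-associated degradation held 4 of the 6 calls, and they ran both ways. SYVN1 (HRD1), the ubiquitin ligase at the centre of this pathway, rose in K422 with arrays from 0.34 through 0.57 to 0.70 and in HBL-1 with arrays from 0.41 through 0.64 to 0.85. The means of 0.54 ± 0.05 (SE, n = 6, adjusted p = 2.13e-06) and 0.64 ± 0.05 (8.16e-08) were called. With normexp background and median centring SYVN1 did not pass in either (0.26, adjusted p = 0.341, and 0.33, 0.136), and in K422 it fell below the size limit without replicate 3 (0.4551) or with siFOXP1 #2 alone (0.4623). In OCI-Ly3 (0.02 through 0.22 to 0.28, mean 0.18, adjusted p = 0.0194) and DB (0.05 through 0.11 to 0.22, mean 0.13, adjusted p = 0.126) all arrays were above 0 as well, and they did not overlap the arrays of K422 or HBL-1. A second SYVN1 probe gave 0.54 in K422 and 0.66 in HBL-1, and 0.28 and 0.22 in OCI-Ly3 and DB.

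OS9, a lectin that hands misfolded glycoproteins to that ligase, rose in all 4 lines. Its arrays ran from 0.08 through 0.18 to 0.33 in DB, from 0.21 through 0.44 to 0.67 in K422, from 0.55 through 0.66 to 0.83 in HBL-1 and from 0.13 through 0.35 to 0.45 in OCI-Ly3. All 24 were above 0, the means were 0.19, 0.42, 0.68 and 0.34 (adjusted p = 0.0152, 1.02e-05, 1.72e-08 and 9.03e-05), and HBL-1 was called. With normexp background and median centring OS9 passed in HBL-1 alone and was not called there (0.44, adjusted p = 0.0264). SEL1L, the partner of SYVN1 in the same complex, went the other way in HBL-1, where it fell by 0.30 on the log2 scale (adjusted p = 0.0177).

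EDEM1, which extracts misfolded glycoproteins from the folding cycle, fell in OCI-Ly3. The 6 arrays there ran from -0.71 through -0.54 to -0.31, a mean of -0.54 ± 0.11 (SE, n = 6, adjusted p = 0.00255), and a second probe gave -0.48. In HBL-1 they ran from -0.91 through -0.40 to 0.10, a mean of -0.45 (adjusted p = 0.00496). With siFOXP1 #1 alone the mean there was -0.71 (adjusted p = 0.0318), and #2 lay higher than #1 by 0.53. The means of -0.21 in DB and -0.23 in K422 did not pass on the brightest probe. The second probe passed as lower in K422 (-0.28, adjusted p over all probes = 0.0137) and HBL-1 (-0.33, 0.00254) and gave -0.02 in DB.

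HERPUD1, a stress-induced membrane component of the degradation complex, did not pass in any line. Its values on the 6 arrays spread from -1.26 through -0.37 to 0.45 in DB, from -0.40 through -0.16 to 0.13 in K422, from -0.60 through -0.34 to 0.06 in HBL-1 and from -0.23 through 0.07 to 0.40 in OCI-Ly3 (means -0.42, -0.16, -0.30 and 0.11, adjusted p 0.0623 to 0.707). In HBL-1 the 3 arrays of siFOXP1 #1 lay between -0.60 and -0.53 and those of #2 between -0.15 and 0.06, without overlap. Of the derlins, membrane proteins of the exit channel, DERL1 fell in K422 (-0.32) and HBL-1 (-0.31) on the brightest of 3 probes, DERL2 rose in HBL-1 (0.13, -0.10 with median centring), and DERL3 fell in K422, with arrays from -0.75 through -0.37 to -0.22 and a mean of -0.41 (adjusted p = 0.00317). The other DERL1 probes gave -0.11 and 0.10 in K422 and -0.08 and 0.07 in HBL-1, and none of these passed. DERL3 ran from -0.68 to 0.41 in DB, -0.09 to 0.19 in HBL-1 and -0.21 to 0.12 in OCI-Ly3.

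The retrieval receptors return escaped ER proteins from the Golgi. KDELR2 fell in K422 (-0.33, adjusted p = 0.00112), and its 4 other probes gave -0.35 to -0.48 there. Its brightest probe passed in no other line. Other probes passed as lower in HBL-1 (-0.41, -0.31 and -0.15, adjusted p over all probes 0.00056 to 0.0123), where the fourth gave -0.03. In OCI-Ly3 other probes passed at -0.19 (0.00472) and -0.19 (0.0309), and the rest gave -0.12 and 0.05. KDELR3 was called lower in K422 (-0.81, adjusted p = 0.00286), but it was well above background on none of the siFOXP1 and 1 of the siCtrl channels there, and with another background correction its value was 0.02 or 0.07, so no fold is given and the direction was not settled.

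**Figure D2:**
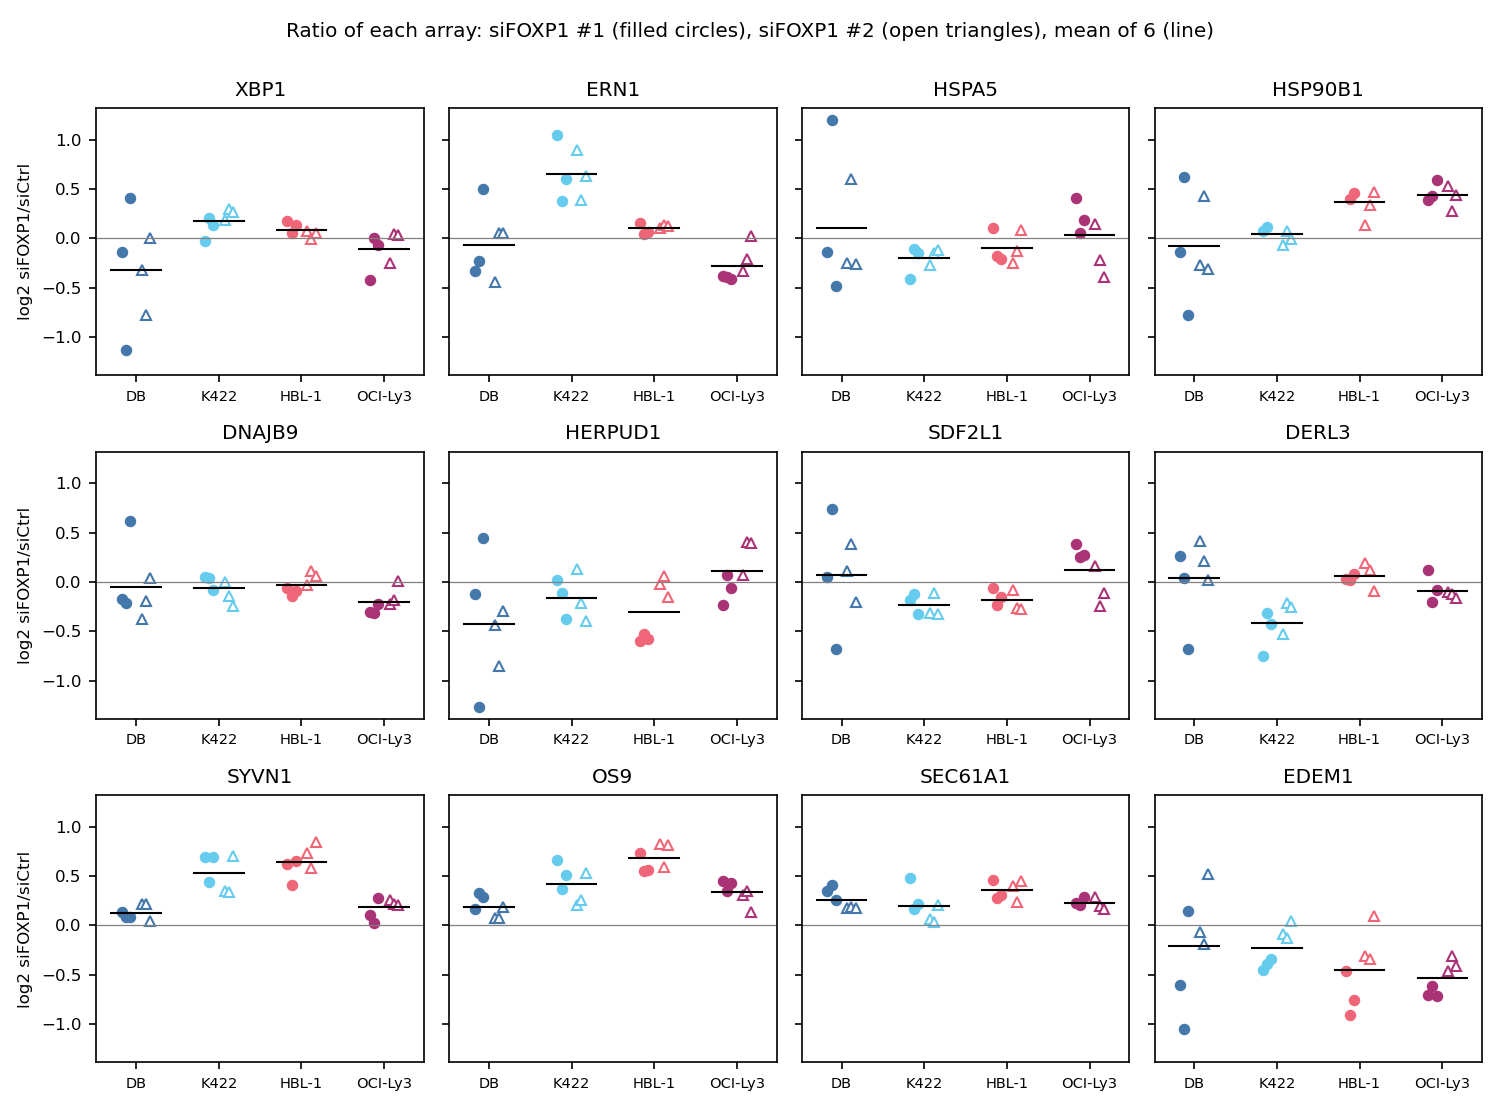
Log2 siFOXP1/siCtrl of each array (vertical axis) in the 4 lines for 12 genes, filled circles for siFOXP1 #1, open triangles for #2 and a line at the mean. In DB the arrays of XBP1, HSPA5, HSP90B1 and HERPUD1 spread over more than 1 log2 unit, while SYVN1, OS9 and SEC61A1 lie above 0 on all arrays.

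In DB 6 stress-responsive genes shifted together on some arrays, 3 of them against the other 3. On the array of siFOXP1 #1 replicate 2, HSPA5 was at 1.19, HSP90B1 at 0.62 and SDF2L1 at 0.74, with XBP1 at -1.13, HERPUD1 at -1.26 and EDEM1 at -1.05. On that of siFOXP1 #1 replicate 3 the same genes were at -0.48, -0.78, -0.68, 0.41, 0.45 and 0.15, each of the opposite sign. The replicate 2 array of siFOXP1 #2 had the signs of its #1 counterpart for these 6 genes, with HSPA5 at 0.60, XBP1 at -0.78 and HERPUD1 at -0.86. The SD of the 40 ratios was 0.493 and 0.384 on those 2 arrays of #1 and 0.191 to 0.3001 on the other 4 of DB. HERPUD1 was negative on the siFOXP1 #2 array of replicate 3, unlike its #1 counterpart. Without replicate 3, XBP1 (-0.59, adjusted p = 0.00252) and HERPUD1 (-0.67, adjusted p = 0.00316) were called lower in DB. HERPUD1 was also called without the #1 array of replicate 3 alone (-0.61, adjusted p = 0.00314), an alternative chosen after seeing the data. The count of 0 in this line thus depended on that replicate, and for HERPUD1 on that 1 array.

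The siRNAs did not differ on any member by limma in any line: 0 of 40 were called in DB (beside 0.302% of all genes), K422 (0.159%), HBL-1 (0.173%) and OCI-Ly3 (0.192%), with 4, 3, 3 and 1 members at an unadjusted p under 0.05. EDEM1 was higher with #2 by 0.59 ± 0.23 (SE, adjusted p = 0.341) in DB, and HERPUD1 by 0.53 ± 0.28 (0.947) in HBL-1, the largest differences in those lines. EDEM1 was also higher with #2 in K422 (0.34), HBL-1 (0.53) and OCI-Ly3 (0.28), and did not pass there (adjusted p 0.77 to 0.941). SSR2, a translocon-associated subunit, differed by 0.28, 0.32 and 0.37 in DB, K422 and HBL-1 (adjusted p 0.460 to 0.567). With 3 arrays each, these intervals do not show that the siRNAs act alike.

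The study compares the ABC with the GCB subtype, and a dye bias cancels in that difference. No member was called by limma for the mean response of the ABC lines minus that of the GCB lines (0 of 40, beside 2.26% of all genes, with 12 at an unadjusted p under 0.05), and 5 passed on p (12.5%, beside 8.30%). On the mean of the ABC lines, HYOU1 (0.27 ± 0.05, SE), OS9 (0.20) and SSR4 (0.16) responded more positively and ERN1 (-0.38) and SEC62 (-0.20) more negatively. With normexp background and median centring, or with either siRNA alone, 0 members passed on p in this comparison. The single lines split by subtype for HYOU1 and SEC62 but not for the others. OS9 was at 0.34 in OCI-Ly3 and 0.42 in K422, SSR4 at 0.09 in both, and ERN1 at 0.10 in HBL-1 and -0.07 in DB. On p, 8 members passed for HBL-1 minus K422 (20%, beside 9.92% of all genes) and 0 for OCI-Ly3 minus DB (beside 2.84%). Within scan sessions, 0 members were called for OCI-Ly3 minus DB (beside 1.43% of all genes, with 5 at an unadjusted p under 0.05) and 1 for HBL-1 minus K422 (2.5%, beside 4.34%). That gene was ERN1, at -0.55 ± 0.14 (adjusted p = 0.0184), and it was not called without K422 replicate 1 (adjusted p = 0.11) or without any 1 of the HBL-1 replicates (0.0525 to 0.0744). Without DB replicate 2, HSP90B1 was called as more positive in the ABC lines (0.57, adjusted p = 0.000409) and in OCI-Ly3 than in DB (0.82), and without DB replicate 3 HERPUD1 was called in the latter (0.78).

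In siCtrl cells the median size of the difference in level between lines was 0.43 (OCI-Ly3 and DB) and 0.55 (HBL-1 and K422) on the log2 scale over the 40 genes, against a median size of response of 0.10 to 0.19. Levels are log2 signals of the Cy5 channel after scaling between arrays, with the arrays of a line and replicate number averaged into 1 control sample, 3 per line. A level compares lines for the same probe and never one gene with another. Of the 40, 18 (45.0%) were called between OCI-Ly3 and DB, beside 39.5% of all genes, 11 higher and 7 lower in OCI-Ly3 (17.6% and 21.9% of all genes). Between HBL-1 and K422 20 (50.0%) were called, beside 39.2%, 12 higher and 8 lower in HBL-1 (17.3% and 21.9%). For both ABC minus both GCB lines 17 (42.5%) were called, beside 38.7%, 11 higher and 6 lower (16.8% and 21.9%). Among genes above background the shares were 55.4%, 55.2% and 54.1%, so the members' shares lay below those.

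**Figure D3:**
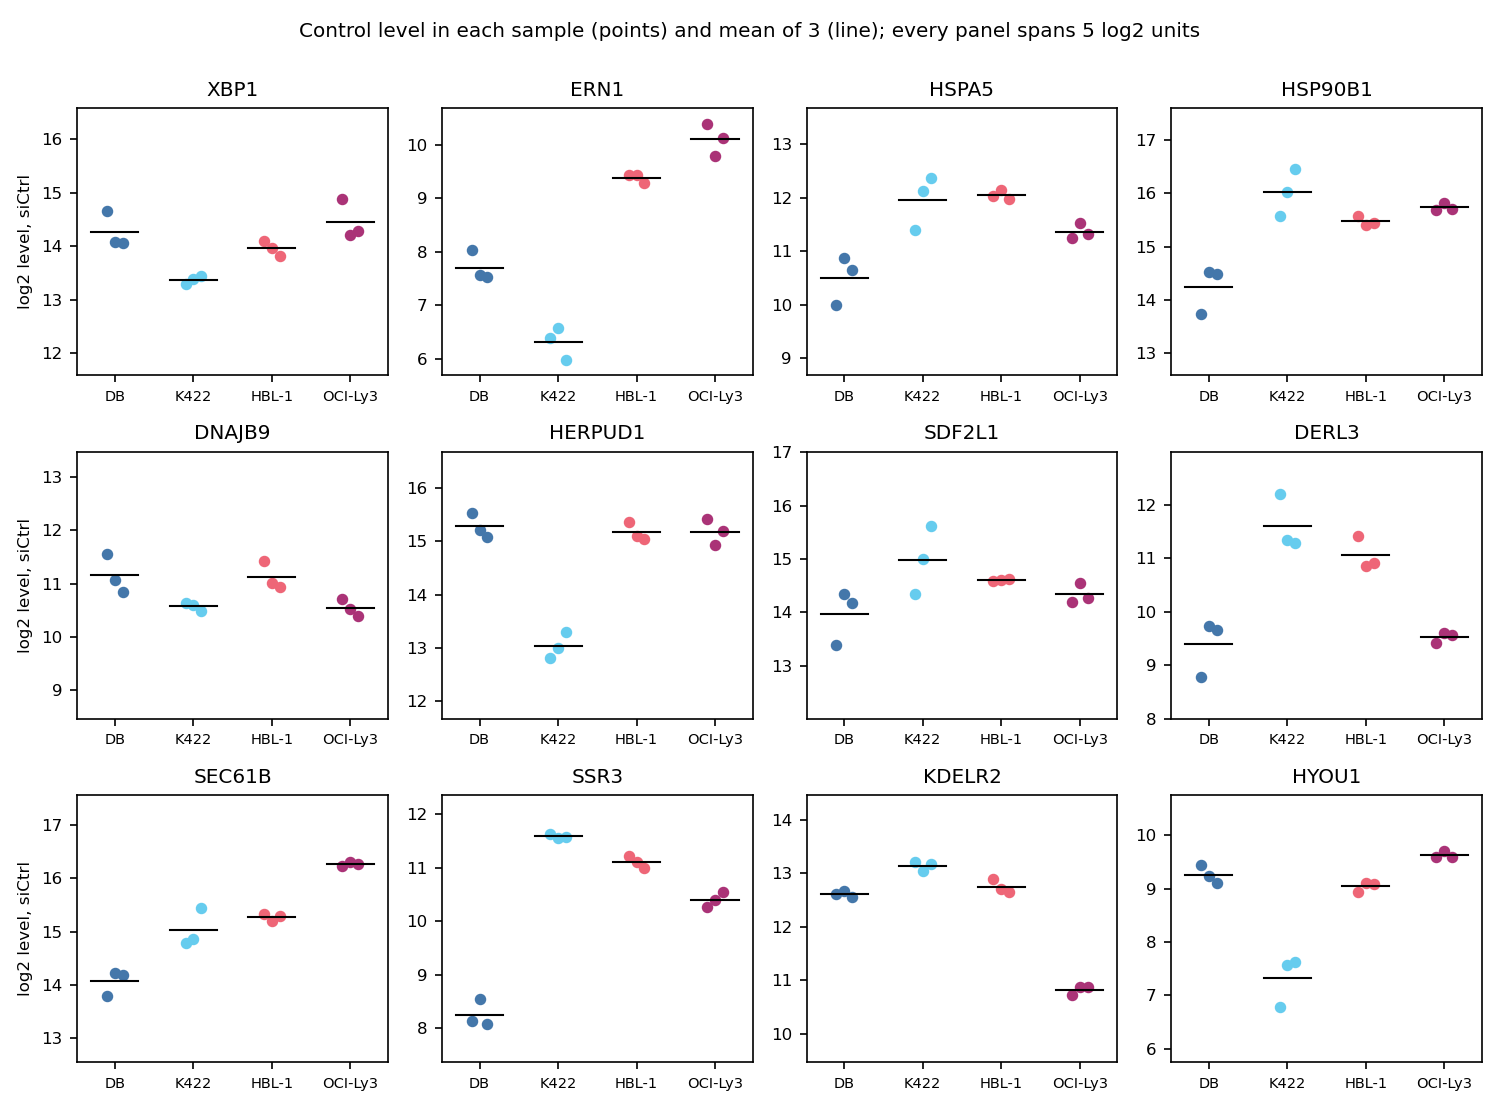
Log2 control level of 12 genes in each siCtrl sample (points, 3 per line) with the mean as a line, every panel spanning 5 log2 units. ERN1 lies higher in all samples of HBL-1 and OCI-Ly3 than in those of DB and K422, while HERPUD1 and HYOU1 are lowest in K422, and SSR3 in DB.

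ERN1, on its brightest probe, had the largest difference between subtypes among the members. Its levels were 8.02, 7.56 and 7.53 in DB, 6.38, 6.57 and 5.97 in K422, 9.43, 9.43 and 9.29 in HBL-1 and 10.40, 9.79 and 10.13 in OCI-Ly3. Every ABC sample lay above every GCB sample, by 2.74 ± 0.14 on average (SE, limma adjusted p = 3.6e-08), with 2.41 for OCI-Ly3 minus DB and 3.08 for HBL-1 minus K422. The dim probes gave 0.97 and 0.39 (NM_001433) and -0.06 and -0.05, so this difference too rests on the brightest probe. That probe is annotated to a transcript record other than NM_001433.

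XBP1 was called between HBL-1 and K422 alone. Its levels were 14.66, 14.09 and 14.07 in DB, 13.29, 13.38 and 13.45 in K422, 14.09, 13.97 and 13.82 in HBL-1 and 14.88, 14.22 and 14.28 in OCI-Ly3. K422 lay lowest and did not overlap HBL-1, which was higher by 0.58 ± 0.20 (adjusted p = 0.0371), whereas OCI-Ly3 and DB overlapped (0.18 ± 0.20, adjusted p = 0.515). The first difference was not called in any fit without 1 K422 replicate or without HBL-1 replicate 1 or 2 (0.52 to 0.62, adjusted p 0.0636 to 0.113), nor in the Cy3 channel (0.49, 0.202). For ABC minus GCB, XBP1 was at 0.38 (adjusted p = 0.0455), below the size limit, and was called higher with the mean over its probes (0.53, 0.00833) or 75th percentile scaling (0.58, 0.00481). Its second probe gave 0.51 for OCI-Ly3 minus DB and 0.86 for HBL-1 minus K422.

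HERPUD1 stood out in K422, at 12.82, 13.00 and 13.30 against 15.36, 15.10 and 15.04 in HBL-1. The samples did not overlap, and HBL-1 was higher by 2.13 ± 0.18 (adjusted p = 2.57e-06, 4.38-fold). DB (15.53, 15.22 and 15.08) and OCI-Ly3 (15.42, 14.93 and 15.18) overlapped, with a difference of -0.10 ± 0.18 (adjusted p = 0.708). HYOU1 was also lowest in K422, with 6.79, 7.58 and 7.63 in K422 and 8.93, 9.10 and 9.09 in HBL-1, a difference of 1.71 ± 0.20 (adjusted p = 3.66e-05).

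Of the chaperones, HSP90B1 was at 13.73, 14.53 and 14.49 in DB and 15.68, 15.82 and 15.71 in OCI-Ly3, a difference of 1.49 ± 0.24 (adjusted p = 0.000397). In K422 it was at 15.57, 16.02 and 16.45 and in HBL-1 at 15.57, 15.40 and 15.45, a difference of -0.54 ± 0.24 that did not pass (adjusted p = 0.0972). HSPA5 was at 9.98, 10.88 and 10.65 in DB, 11.40, 12.12 and 12.37 in K422, 12.04, 12.14 and 11.98 in HBL-1 and 11.24, 11.52 and 11.31 in OCI-Ly3. OCI-Ly3 lay above DB by 0.86 ± 0.26 (adjusted p = 0.0217) on this probe, but a second probe gave -0.40, so the direction was not settled. CANX was higher in every ABC than in every GCB sample, by 1.11 ± 0.10 (adjusted p = 3.07e-06), from 11.17, 11.32 and 11.26 in DB and 11.18, 11.62 and 11.77 in K422 to 12.85, 12.87 and 12.79 in HBL-1 and 12.13, 12.17 and 12.14 in OCI-Ly3. CRELD2, a stress-induced ER protein, was lower in OCI-Ly3 (10.85, 11.30 and 11.06) than in DB (12.10, 12.32 and 12.22) by -1.14 ± 0.16 (adjusted p = 0.000104).

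DNAJB9, SDF2L1 and DERL3 had no common order. DNAJB9 was at 11.55, 11.06 and 10.85 in DB, 10.63, 10.61 and 10.49 in K422, 11.43, 11.02 and 10.94 in HBL-1 and 10.72, 10.52 and 10.39 in OCI-Ly3. It was called lower in OCI-Ly3 than in DB (-0.61 ± 0.19, adjusted p = 0.0226) and higher in HBL-1 than in K422 (0.55 ± 0.19, adjusted p = 0.0368). The first call was lost without DB replicate 1 (-0.41, adjusted p = 0.0714) or OCI-Ly3 replicate 2 or 3 (0.0592 and 0.0809), and the second without any 1 K422 replicate or HBL-1 replicate 1 or 2 (0.0548 to 0.144), with the sign kept. SDF2L1 (13.40, 14.35 and 14.18 in DB, 14.35, 15.00 and 15.62 in K422, 14.59, 14.61 and 14.62 in HBL-1, 14.20, 14.56 and 14.28 in OCI-Ly3) overlapped in both comparisons. DERL3 was lower in the lines of one scan session (8.78, 9.73 and 9.66 in DB, 9.41, 9.61 and 9.57 in OCI-Ly3) than in those of the other (12.21, 11.35 and 11.29 in K422, 11.42, 10.86 and 10.91 in HBL-1), and scan session and line cannot be told apart there. Its differences within sessions, 0.14 ± 0.30 and -0.55 ± 0.30, did not pass.

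Of the translocon genes, SEC61B was higher in OCI-Ly3 (16.22, 16.30 and 16.27) than in DB (13.80, 14.23 and 14.19) by 2.19 ± 0.17 (adjusted p = 1.46e-06), and its second probe gave 2.26. HBL-1 (15.33, 15.20 and 15.29) and K422 (14.78, 14.86 and 15.43) overlapped. SSR3, of the translocon-associated complex, was higher in OCI-Ly3 (10.27, 10.40 and 10.55) than in DB (8.13, 8.55 and 8.07) by 2.15 ± 0.14 (adjusted p = 2.52e-07), although its second probe gave 0.56. SEC61A1 was higher in every ABC than in every GCB sample, by 0.91 ± 0.07 (adjusted p = 7.42e-07), and all 12 samples lay between 10.41 and 11.69. SEC61G was lower in HBL-1 (10.81, 10.86 and 10.87) than in K422 (11.87, 11.80 and 11.83) by -0.99 ± 0.14 (adjusted p = 0.000196).

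Of the genes lower in an ABC line, DERL1 (-0.63 ± 0.08) and DERL2 (-0.72 ± 0.10) were lower in every ABC than in every GCB sample (adjusted p = 4.1e-05 and 0.000116). KDELR2 was at 10.72, 10.88 and 10.88 in OCI-Ly3 and 12.61, 12.66 and 12.56 in DB, a difference of -1.78 ± 0.10 (adjusted p = 1.05e-07). Of its 4 other probes, 3 gave -1.36 to -1.70 and the fourth -0.01. SPCS2 was lower in OCI-Ly3 (12.53, 12.69 and 12.69) than in DB (13.56, 13.80 and 13.71) by -1.05 ± 0.14 (adjusted p = 9.72e-05), with 0.02 for HBL-1 minus K422 (0.969). PDIA3 was lower in HBL-1 (11.84, 11.81 and 11.74) than in K422 (13.03, 13.32 and 13.56) by -1.51 ± 0.18 (adjusted p = 4.61e-05), with -1.45 and -1.56 on its other probes, and SPCS3 (12.62, 12.61 and 12.45 against 13.49, 13.67 and 13.91) by -1.13 ± 0.14 (adjusted p = 4.74e-05). SPCS3 went the other way between OCI-Ly3 and DB (0.42, adjusted p = 0.027).

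**Figure D4:**
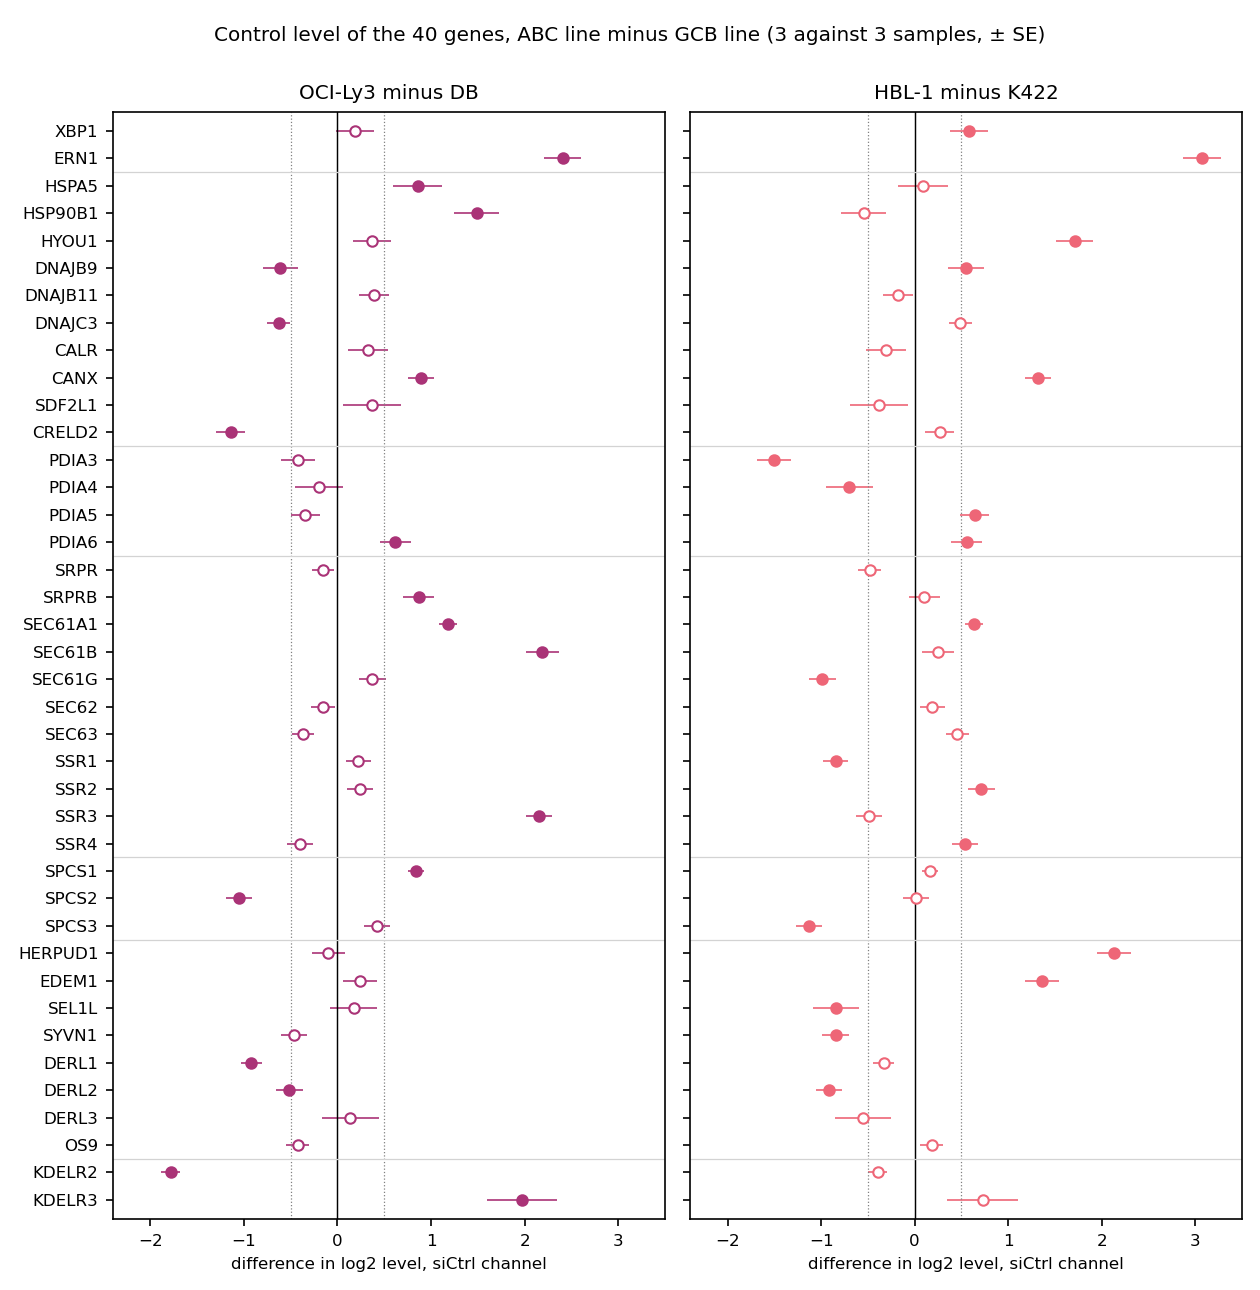
Difference in log2 control level for each of the 40 genes, OCI-Ly3 minus DB and HBL-1 minus K422, with bars of 1 SE over 3 against 3 samples; filled points were called and dotted lines mark -0.5 and 0.5. ERN1, CANX, SEC61A1 and PDIA6 were called higher in both and DERL2 lower in both; the DNAJB9 points lie on opposite sides of 0, and both calls were lost when single replicates were left out.

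The median of the 40 genes was 0.20 for OCI-Ly3 minus DB, 0.13 for HBL-1 minus K422 and 0.03 for ABC minus GCB, against -0.09, -0.10 and -0.11 over the genes above background. Scaling each array to its 75th percentile moved the medians for ABC minus GCB to 0.17 and -0.00, with 16 members called higher and 5 lower in place of 11 and 6. Arrays of both lines on the same slide existed for 1 slide per scan session, and there the 49 members' differences between 2 lines that passed on p kept their sign.

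The 10 members with ERSE or ERSE-II did not move together on silencing. Of them, 1 was higher and 0 lower on p in DB, 0 and 1 in K422, 2 and 1 in HBL-1 and 2 and 1 in OCI-Ly3, with medians of -0.03, -0.03, -0.06 and 0.11, and none was called. Of the 24 with neither motif in the window, 2 were higher and 2 lower in DB, 6 and 6 in K422, 6 and 5 in HBL-1 and 4 and 3 in OCI-Ly3. HSP90B1 and HYOU1 were the higher genes with a motif in OCI-Ly3, HYOU1 and CALR those in HBL-1, and CANX the lower gene in K422, HBL-1 and OCI-Ly3.

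Beyond the members, 18 other genes of the unfolded protein response and ER-associated degradation were listed. In K422 1 was called higher (beside 2.34% of all genes) and in HBL-1 3 (5.73%), with 0 called lower in any line and 0 called in DB and OCI-Ly3. EIF2AK3 (PERK), the ER kinase that slows translation, rose by 1.08 ± 0.08 in K422 (arrays 0.87 to 1.48, adjusted p = 9.92e-08) and by 0.53 ± 0.08 in HBL-1. UBE2J1, the ubiquitin-conjugating enzyme of the SYVN1 ligase, rose in HBL-1 (0.65 ± 0.08, adjusted p = 3.82e-06). Of 22 genes of oxidative folding and glycosylation, PRKCSH, a subunit of glucosidase II, was called higher in each line (0.57, 0.61, 0.87 and 0.54), and FKBP11, a prolyl isomerase of secretory cells, was called lower in OCI-Ly3 (-0.65). Of 23 genes of targeting, signal peptidase and vesicle transport, SEC24C, a COPII coat subunit, was called higher in OCI-Ly3 (0.51) and LMAN1 (ERGIC-53), a cargo receptor, lower in HBL-1 (-0.70).

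Of 10 plasma cell genes, 4 were called higher in HBL-1 (beside 5.73% of all genes), 2 in K422 (2.34%), 1 in DB (1.33%) and 0 in OCI-Ly3 (2.80%), and 0 lower. IGJ, the joining chain of secreted IgM and IgA, rose by 3.33 ± 0.12 in HBL-1 (arrays 2.70 to 3.97, adjusted p = 6.21e-12) and by 0.94 in K422. CD38 rose by 0.96 in HBL-1, MZB1, an ER chaperone for immunoglobulin listed on the array as MGC29506, by 0.61 in K422, and POU2AF1, a B-cell transcriptional coactivator, by 0.61 in DB. In the same HBL-1 arrays XBP1 was at 0.08 and HSPA5 at -0.10. IRF4, which drives plasma cell differentiation and marks the ABC subtype, was well above background in HBL-1 and OCI-Ly3 and on none of the siCtrl channels of DB and K422. The control signals of the 10 plasma cell genes did not follow subtype in sum, but bright probes weigh most in such a sum. They summed to 63290 to 67560 in DB, 117100 to 153500 in K422, 77080 to 85350 in HBL-1 and 105300 to 116600 in OCI-Ly3. Of 8 integrated stress response genes, 3 were called lower in OCI-Ly3 (beside 1.62% of all genes) and 1 in HBL-1 (4.17%), with CHAC1 (-1.43, adjusted p = 0.0136) and ASNS (-0.76, adjusted p = 0.0272) the lowest in OCI-Ly3.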

How the data were processed

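The authors scanned 24 Agilent 2-colour arrays (45015 spots each, coordinates on hg18) and deposited Feature Extraction output, version 10.5.1.1 for DB and OCI-Ly3 and 10.7.3.1 for K422 and HBL-1. Per the file headers, each file holds intensity per channel and LogRatio, the log10 of the dye-normalized, background-subtracted Cy5 signal divided by that of Cy3. The authors also deposited a matrix of log2 values, used as an alternative, whose columns correlated with the scanner ratios at 0.804 to 0.998 (medians -0.17 to 0.07). The matrix's scale and direction were set by that comparison, its centring stays unknown, and the direction of the scanner ratios came from the dyes in the labels.

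LogRatio was divided by log10(2) and its sign turned, so that values are log2 siFOXP1/siCtrl. Control spots (1639 per array) and outlier spots (113 to 469) were left out, spots of a probe averaged and the brightest probe taken per gene. Control levels were log2 Cy5 signals after Aquantile. limma 3.58.1 (R 4.3.3) fitted all 30142 genes, with a mean for each line and siRNA, and Benjamini-Hochberg adjustment. On simulated data with the HBL-1 design, 62% of changes of 0.5 and 86% of 1.0 passed on p among 200 changed of 30142 genes, and 10 unchanged genes passed. For control levels of OCI-Ly3 minus DB, 3% of differences of 0.5 and 41% of 1.0 passed on p. The simulated samples were independent and few of their genes were changed. In the data 39.5% of all genes were called between OCI-Ly3 and DB, so these shares do not give the recovery there. The number of arrays limits the precision.

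The series describes independent experiments, and whether the arrays of both siRNAs of a number share siCtrl RNA is not given in the sources used here. Deviations of same-numbered arrays correlated at 0.0468 to 0.284 over all genes and 0.119 to 0.611 over those above background, and the replicate number was used as a block only in an alternative. Members and gene lists were chosen with earlier results of these data known. Genes named per array were 8 genes of the IRE1-XBP1 branch and usual response markers, and the 3 greatest rises and falls per comparison among called members whose samples all went one way and were well above background; the other members named, including SEC61A1, OS9, SPCS2, HYOU1, PDIA4, CANX and KDELR3 in the responses, were chosen after their values were seen. Of the other lists, the 2 greatest called changes each way were named, except 1 gene that is not reported here.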

Additional observations from a re-analysis of the deposited data

Results flagged for a closer look

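Each result here is a difference in response between lines that passed an interaction test in limma (adjusted p under 0.05 over all genes). For the mean of HBL-1 and OCI-Ly3 minus that of DB and K422 these were HYOU1 (0.27, adjusted p = 0.00298), OS9 (0.20, 0.0137), SSR4 (0.16, 0.0228), ERN1 (-0.38, 0.0234) and SEC62 (-0.20, 0.0473). For HBL-1 minus K422 they were HYOU1 (0.41, 0.00162), PDIA5 (0.31, 0.00932), SRPRB (0.29, 0.00939), SSR4 (0.25, 0.0116), ERN1 (-0.55, 0.0184), OS9 (0.26, 0.0229), DERL3 (0.47, 0.0249) and SEC62 (-0.28, 0.0476). With the replicate number as a block, SEC62 passed in neither (adjusted p = 0.0944 and 0.093), SSR4 not for ABC minus GCB (0.0592) and OS9 not for HBL-1 minus K422 (0.0584). For ABC minus GCB, 0 members passed on p with normexp background and median centring, and 0 with siFOXP1 #1 or #2 alone. ERN1 did not pass in that comparison with normexp background and loess, while HYOU1, OS9, SSR4 and SEC62 did. The 8 differences of HBL-1 minus K422 kept their sign on the slide that held both lines. For OCI-Ly3 minus DB 0 members passed on p, beside 2.84% of all genes.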

How the results depend on the processing

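The number of members called in DB (0) was 1 with normexp and loess (HERPUD1), 2 with normexp and median centring (XBP1 and HERPUD1, both lower), 1 without the array of siFOXP1 #1 replicate 3 (HERPUD1, an alternative chosen after seeing the data) and 6 with no size limit. In K422 (2 higher, 1 lower) it was 1 with loess, 0 with median centring and 16 with no size limit. In HBL-1 (2 higher) it was 6, all lower, with median centring and 15 with no size limit, and in OCI-Ly3 (1 lower) 0 with loess and with either siRNA alone, 1 with median centring and 11 with no size limit. Median centring moved the median over genes above background to -0.06, -0.09, -0.14 and -0.03 and that of the members to -0.13, -0.26, -0.25 and -0.04. It reversed KDELR3 in K422 (0.0656, and 0.016 with loess), SSR4 (-0.11) and DERL2 (-0.10) in HBL-1.

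The difference between siRNAs in DB gave 1 call without that array (EDEM1) and the response of OCI-Ly3 minus DB also 1 (HERPUD1). ABC minus GCB gave 5 with no size limit. HBL-1 minus K422 (1, ERN1) gave 0 with loess, median centring, the mean over probes, siRNAs averaged, and either siRNA alone, and 8 with no size limit. Control levels of ABC minus GCB (17) gave 26 with no size limit. Leaving out a replicate gave 0 to 2 in DB, 2 to 3 in K422 and HBL-1, 1 to 2 in OCI-Ly3 (PDIA4 gained at 0.52 without replicate 2), 0 to 0 between siRNAs, 0 to 1 for the responses of ABC minus GCB and OCI-Ly3 minus DB, and 0 to 2 for HBL-1 minus K422 (DERL3 gained without K422 replicate 2 or 3). For control levels it gave 15 to 20 (ABC minus GCB), 16 to 20 (OCI-Ly3 minus DB) and 17 to 19 (HBL-1 minus K422). With the replicate block the counts stayed at 0, 3, 2 and 1 for the responses, 0 for the siRNA differences, 0, 0 and 1 for the differences in response and 17, 18 and 20 for the levels, in the same order. With no size limit the block lost DNAJC3 and SPCS1 in DB (4 in place of 6), SEC62 in K422, PDIA4 and KDELR3 in HBL-1 and CANX in OCI-Ly3. The causes were not tested.

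Of 724 gene-level repeats of the 48 responses that passed on p, 514 kept side and direction, 206 no longer passed and 4 reversed. Of 1356 for 75 level differences, 1247 kept both and 109 no longer passed. Of 243 for the 13 differences in response, 131 kept both, 112 no longer passed and 0 reversed.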
